A study of Mus musculus with 3 samples.

Results

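Dpp6, Kcnma1 and Kcnj6 are 3 potassium channel genes of the mouse, and they held 7 of the 1727 sites at which the study's authors listed a difference in PARP-1 occupancy between cocaine and saline. The 7 sites were found as every row of the deposited table that carried one of the 3 gene names, whatever its values. Dpp6 held 4 sites, Kcnma1 held 2 and Kcnj6 held 1. All 7 were classed as gene-body sites, all 7 were higher after cocaine, and the mean normalized read count rose by 3.10-fold to 5.04-fold. Of the 1727 listed sites 1605 were higher, and of the 770 with a gene name 685 were gene-body sites. Because the table lists only sites that the authors' own test had selected on these libraries, a direction or a passing test at a listed site is not independent evidence of a change.

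PARP-1 is a nuclear enzyme that builds chains of ADP-ribose on chromatin proteins, histones and PARP-1 itself among them. Its occupancy was measured by ChIP-seq, in which chromatin fragments pulled down with an antibody are sequenced and counted along the genome. The tissue was punched from the nucleus accumbens, a part of the ventral striatum, of C57BL/6 mice with no other genetic change named. Cocaine-treated mice received 20 mg/kg by intraperitoneal injection daily for 7 days, and the control mice received saline on the same schedule. All were killed 30 min after the last injection, and tissue of 10 mice was pooled for each replicate, so a value is an average over animals and over all cell types of the punch. The labels give 3 replicates a group, in 1 place as biological and in another as sequencing replicates, so the spread between them may be technical. The table holds values of 2 cocaine and 3 saline replicates, which are numbered here by their order in it. A difference in occupancy per cell and a difference in the mix of cells in the punch cannot be told apart in these pooled samples.

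Potassium channels let potassium leave a neuron and so hold or return its membrane voltage towards rest. The 3 genes belong to separate branches of this family. Dpp6 encodes a single-pass membrane protein that joins Kv4 pore subunits and, with KChIP proteins, forms the A-type channel that delays firing and damps signals travelling back into dendrites. Kcnma1 encodes the pore of the BK channel, which opens on depolarization and on calcium together and shortens the action potential. Kcnj6 encodes GIRK2, an inward rectifier that is opened by G protein beta-gamma subunits after receptors such as the dopamine D2 and GABA-B receptors are activated. Medium spiny neurons are the main neurons of the nucleus accumbens, and inwardly rectifying potassium currents help to set their quiet resting state. Which channels carry these currents was not measured here.

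Counts are read numbers that the authors scaled by 1 factor per library, and whole reads could be recovered from them. In normalized units 1 read equalled 0.821 and 1.14 for cocaine replicates 1 and 2, and 1.06, 0.912 and 1.09 for saline replicates 1 to 3. Depth was taken as the inverse of this value and was not measured. By it the shallowest library had 72.3% of the depth of the deepest. Across the 7 sites a cocaine replicate held 13 to 26 reads and a saline replicate 1 to 8. limma, fitted to log2(value + 1) over all 1727 sites with Benjamini-Hochberg adjustment, gave an adjusted p under 0.05 in the higher direction at 7 of the 7 sites, where 90.2% of all listed sites passed in that direction. The adjusted p values were 0.00537 to 0.0114. Every cocaine value exceeded every saline value at 7 of 7 sites, against 92.2% of all listed sites. An exact conditional test on the reads gave an adjusted p under 0.05 at 7 of 7, against 91.9% of listed sites in the higher direction. The exact test pools the reads of each group, takes them as independent and does not measure the spread between replicates. These shares of the list lie close to those of the 7 sites. The median limma log2 change was 1.58 over the 7 sites and 1.67 over all listed sites. Without cocaine replicate 1 the median limma log2 change of the 7 sites was 1.68, and without cocaine replicate 2 it was 1.58. In these fits a lone cocaine value was assumed to vary like the saline values. Fewer sites passed in them, among the 7 and across the list alike, so the calls rest on both cocaine replicates.

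**Figure D1:**
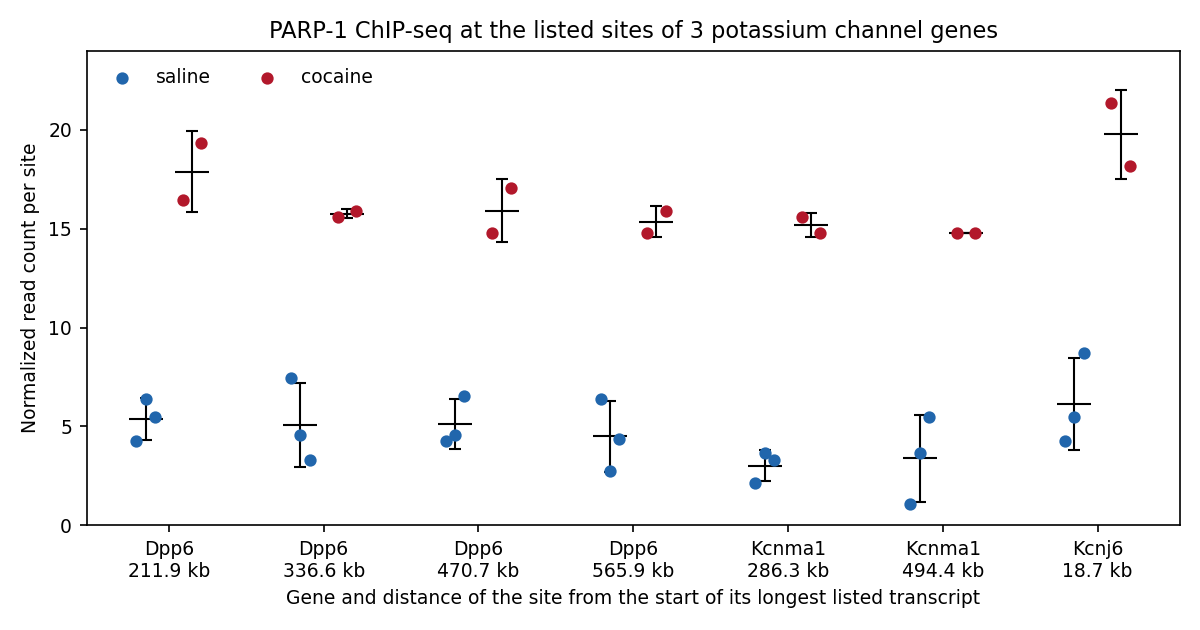
Normalized read counts (y axis) at the 7 sites (x axis, with the distance from the start of the longest listed transcript) for 3 saline replicates in blue and 2 cocaine replicates in red; black bars are means ± SD. The cocaine values lie between 14.77 and 21.36 and the saline values between 1.06 and 8.73, and the groups do not overlap at any of the 7 sites.

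Dpp6 was 1 of 3 genes in the table with 4 or more sites. Its sites were spread over the gene on the plus strand of chromosome 5 (all coordinates in mm9), with centres 124.7, 134.1 and 95.2 kb apart. The table names 2 transcripts of Dpp6, NM_207282 with a span of 678.3 kb and the shorter NM_001136060 with a span of 465.6 kb, which start 212736 bp apart and share their end. The site nearest to a start (27587101 to 27588100) was assigned to the gene body of NM_207282, 211.9 kb from its start. It also lay just upstream of the start of NM_001136060. Its centre was 873.5 bp and its downstream edge 374 bp before that start at position 27588474. The other 3 sites were assigned to NM_001136060, and lay 123.8, 257.9 and 353.1 kb from its start or 336.6, 470.7 and 565.9 kb from the start of NM_207282.

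The promoter sequences of these 2 starts are shown because the site in front of NM_001136060 ends 124 bp short of the window of its start, while the start of NM_207282 has no listed site near it. The windows run from 250 bases before to 50 after the start, 5′ to 3′ on the plus strand, and come from RefSeq on GRCm38.p6, another build than that of the sites. They were matched to the transcripts by the spacing of the starts, which is 212736 bp in either build. Capitals mark the dinucleotide CG, which reads the same on both strands.
NM_207282 start, chr5:27048949-27049248 of GRCm38.p6: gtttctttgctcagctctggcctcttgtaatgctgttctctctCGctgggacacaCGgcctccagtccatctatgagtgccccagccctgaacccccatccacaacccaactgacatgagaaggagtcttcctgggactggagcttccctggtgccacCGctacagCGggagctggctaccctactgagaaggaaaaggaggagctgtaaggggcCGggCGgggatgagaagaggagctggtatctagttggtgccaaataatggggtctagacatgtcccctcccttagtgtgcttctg
NM_001136060 start, chr5:27261685-27261984 of GRCm38.p6: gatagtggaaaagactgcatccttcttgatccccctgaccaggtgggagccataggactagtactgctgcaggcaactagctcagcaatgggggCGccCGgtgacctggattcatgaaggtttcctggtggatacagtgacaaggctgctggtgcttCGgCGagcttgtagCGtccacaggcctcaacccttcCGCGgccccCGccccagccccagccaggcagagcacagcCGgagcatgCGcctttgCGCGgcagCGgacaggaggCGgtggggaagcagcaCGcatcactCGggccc
The window of NM_207282 holds 6 CG and that of NM_001136060 holds 16. Of 32851 RefSeq promoter windows of 300 bases, 56.4% hold at least 6 and 33.0% at least 16, with a median of 7. The window in front of the shorter transcript is thus the richer in CG, and the listed site lies outside it. The sequence under the 7 sites, and whether it is exonic or intronic, were not analysed here.

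At the Dpp6 site in front of NM_001136060 the normalized read counts were 16.43 and 19.32 after cocaine and 4.25, 6.38 and 5.46 after saline. The lowest cocaine value was 2.58 times the highest saline value. The means were 17.9 ± 2.04 (SD, n = 2) and 5.36 ± 1.07 (SD, n = 3), a limma log2 change of 1.58 ± 0.27 (SE, adjusted p = 0.00537). This was the Dpp6 site with the highest cocaine count. At the site at 336.6 kb (27711801 to 27712800) the counts were 15.61 and 15.91 after cocaine and 7.43, 4.56 and 3.28 after saline. Saline replicate 1 was the highest of its group there, and the lowest cocaine value was still 2.10 times as high. limma gave a log2 change of 1.52 ± 0.35 (SE, adjusted p = 0.00836).

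At the site at 470.7 kb (27845901 to 27846900) the counts were 14.79 and 17.04 after cocaine and 4.25, 4.56 and 6.55 after saline, with a limma log2 change of 1.48 ± 0.27 (SE, adjusted p = 0.00563). Here saline replicate 3 was the highest of its group. At the site nearest the end of the gene, at 565.9 kb (27941101 to 27942100), the counts were 14.79 and 15.91 after cocaine and 6.37, 2.74 and 4.37 after saline, with a limma log2 change of 1.63 ± 0.34 (SE, adjusted p = 0.00703). No saline replicate was the highest at all 4 sites. Summed over the 4 sites, the counts were 61.62 and 68.18 after cocaine and 22.3, 18.24 and 19.66 after saline. The changes of the 4 sites, 1.48 to 1.63 on the log2 scale, differed from each other by less than the SE of any of them. Without cocaine replicate 1 the changes of the 4 sites were 1.53 to 1.69, and without cocaine replicate 2 they were 1.39 to 1.58.

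Kcnma1 lies on the minus strand of chromosome 14, and its listed transcript NM_010610 spans 705.4 kb. Its 2 sites lay 208.1 kb apart in the body of the gene, 286.3 kb (24536601 to 24537600) and 494.4 kb (24328501 to 24329500) from the start. At the site nearer the start the counts were 15.61 and 14.77 after cocaine and 2.12, 3.65 and 3.28 after saline. The lowest cocaine value was 4.05 times the highest saline value, the widest gap among the 7 sites. The means were 15.2 ± 0.59 (SD, n = 2) and 3.02 ± 0.80 (SD, n = 3), a 5.04-fold difference and a limma log2 change of 2.03 ± 0.28 (SE, adjusted p = 0.00537). In the authors' deposited table its log2 fold change was 2.33, and 60 of the 1605 higher sites had a larger one. For the other Kcnma1 site this number was 180, for the Dpp6 sites 989 to 1315 and for the Kcnj6 site 1189.

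At the Kcnma1 site farther from the start the counts were 14.79 and 14.77 after cocaine and 1.06, 3.65 and 5.46 after saline. The cocaine values stood for 18 and 13 reads, so their closeness does not measure precision, and the saline values stood for 1, 4 and 5 reads. The limma log2 change was 2.00 ± 0.51 (SE, adjusted p = 0.0114), the largest SE and the largest adjusted p among the 7 sites. The saline mean, 3.39 ± 2.21 (SD, n = 3), rested on 10 reads in all. Cocaine counts of Kcnma1 were no higher than those of Dpp6, and its larger fold went with lower saline counts. The lowest cocaine values at any higher site with a mean count under 100 were 13.14 and 13.64, or 16 and 12 reads. Of the 1567 such sites, 1003 had a larger cocaine mean than the Kcnma1 site nearer the start and 1126 a larger one than this site. Leaving out cocaine replicate 1 or cocaine replicate 2 gave this site a limma log2 change of 2.00.

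Kcnj6 lies on the minus strand of chromosome 16, and its listed transcript NM_001025585 spans 166.0 kb. Its site (95200001 to 95201300) lay 18.7 kb from the start and was the one nearest to the start of the transcript to which the table assigned it. It was also the longest of the 7, at 1300 bp, where the other 6 were 1000 bp long. The counts were 21.36 and 18.18 after cocaine and 4.25, 5.47 and 8.73 after saline. The means were 19.8 ± 2.25 (SD, n = 2) and 6.15 ± 2.32 (SD, n = 3), the highest of the 7 sites in either group. The lowest cocaine value was 2.08 times the highest saline value, the narrowest gap among the 7. The limma log2 change was 1.58 ± 0.33 (SE, adjusted p = 0.00702). It was 1.47 without cocaine replicate 1 and 1.69 without cocaine replicate 2.

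A second listed site lay outside Kcnj6, its centre 5.05 kb upstream of the same start (95223701 to 95225000), and was classed as intergenic, so it carried no gene name and is not counted among the 7. It was singled out after its values were seen. Its counts were 19.72 and 17.04 after cocaine and 6.37, 5.47 and 7.64 after saline, with a limma log2 change of 1.38 ± 0.25 (SE, adjusted p = 0.00564). The start of NM_001025585 therefore had a higher site on either side, with centres 23.7 kb apart. From edge to edge this intergenic site lay 22.4 kb from the Kcnj6 site. Measured the same way, the nearest other listed site lay 674.6 kb from a Dpp6 site and 1593.4 kb from a Kcnma1 site.

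**Figure D2:**
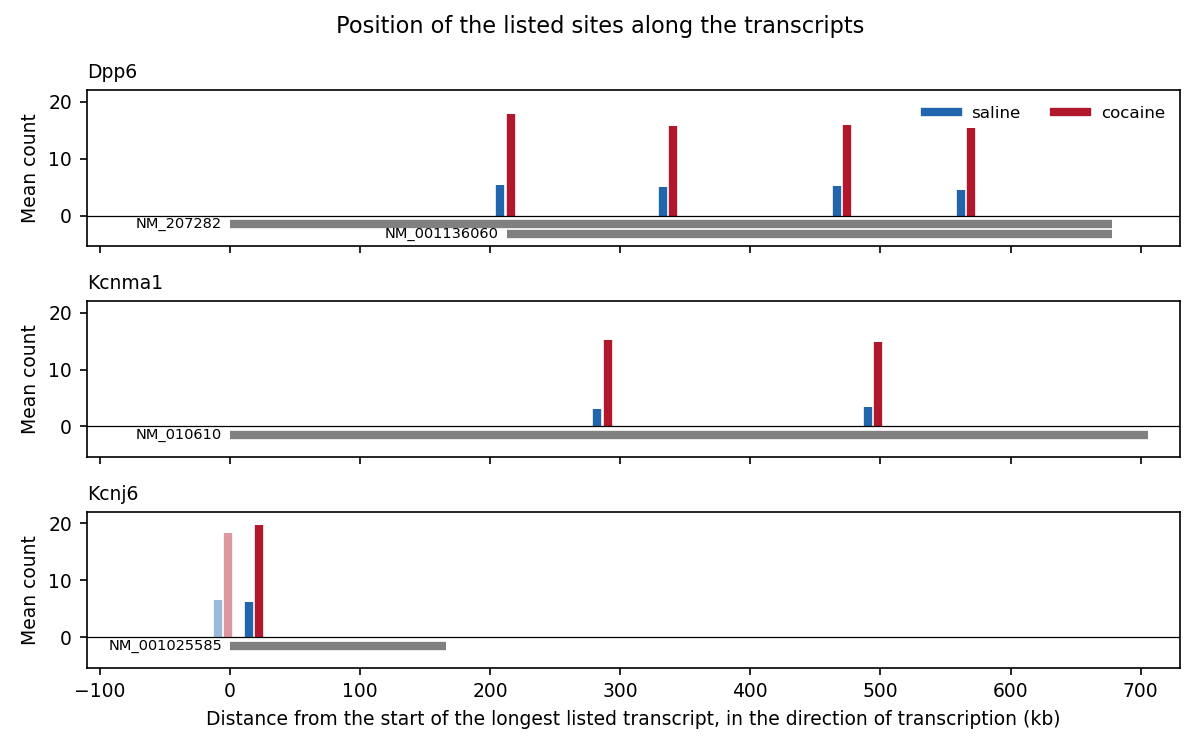
Mean normalized read count (y axis) at the listed sites against distance from the start of the longest listed transcript in the direction of transcription (x axis, kb), for 3 saline (blue) and 2 cocaine (red) replicates, drawn side by side around each site; grey bars are the listed transcripts and the pale bars are the intergenic site upstream of Kcnj6. The Dpp6 site at 211.9 kb sits at the start of NM_001136060, and the sites of Kcnma1 lie at 286.3 and 494.4 kb of a 705.4 kb transcript.

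The reads behind the 7 sites bound how far their changes can be told apart. The 2 cocaine libraries held 240 reads over the 7 sites and the 3 saline libraries 96. The ratio of cocaine to saline reads, per unit of depth, was 5.01 at the Kcnma1 site nearer the start (exact Clopper-Pearson 95% interval 2.34 to 11.9) and 3.10 at the Dpp6 sites at 336.6 and 470.7 kb (1.64 to 6.14). The intervals of all 7 sites shared the range from 2.34 to 6.07. Overlap of intervals does not test a difference, and the 3 genes were not tested against each other, so no order of them is given. These intervals cover counting error only, because the reads of each group were pooled. They also take reads as independent. Several reads can be PCR copies of 1 molecule, so the intervals may be too narrow.

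The authors' enrichment over background describes how far each site stood above a level the authors set. In the authors' deposited table it was 2.37 to 4.83 at the 7 sites after cocaine and 0.68 to 1.55 after saline. After saline 4 of the 7 sites, among them both sites of Kcnma1, were below 1, and so were 62.5% of all listed sites. Kcnj6 had the highest enrichment in either group, 4.83 and 1.55, followed by the Dpp6 site in front of NM_001136060 with 4.36 and 1.36. The Dpp6 site at 336.6 kb had the lowest enrichment after cocaine, 2.37. Among the 4 Dpp6 sites the cocaine count varied 1.16-fold from lowest to highest, and the enrichment 1.84-fold. The count at which enrichment would be 1, found by dividing the authors' average by the authors' enrichment, varied 1.62-fold among them. The order of the 4 sites by enrichment was the reverse of their order by this background. With counts so alike, that order follows largely from the division and is not a separate result.

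**Figure D3:**
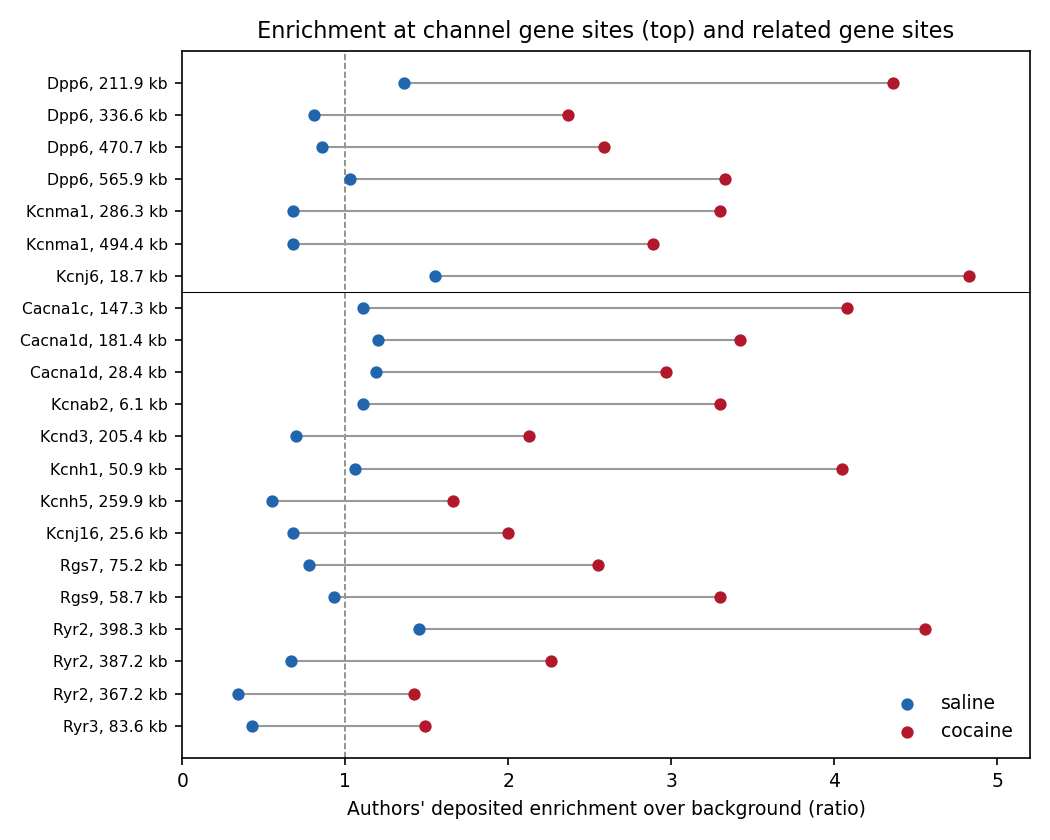
Authors' deposited enrichment over background (x axis, ratio) after saline (blue) and cocaine (red) at the 7 channel gene sites above the line and the 14 sites of related genes below it, each named with its distance from the transcription start (y axis); the dashed line marks 1. At the 7 sites saline lies between 0.68 and 1.55 and cocaine between 2.37 and 4.83.

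None of the 7 sites was classed as a promoter site, where 85 of the 770 listed sites with a gene name were. The Dpp6 site assigned to the gene body of NM_207282 nonetheless ended 374 bp before the start of NM_001136060. The genes themselves were long: the median span of the 688 genes with a listed site was 74.6 kb. Of 41 listed genes at least as long as Dpp6, 28 held 1 site and 1 held 4 or more. Of 40 at least as long as Kcnma1, 12 held 2 or more. Genes with no listed site are not in the table, so these counts give no rate of sites per length.

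Other potassium channel genes were counted from lists of names. From lists of 98 potassium channel genes, all matched by symbol or synonym in RefSeq, 5 others of 95 (5.26%) held a site, 1 site each. Over all RefSeq protein-coding genes the share with a listed site was 3.07%, and gene length was not taken into account. All 5 sites were higher after cocaine and passed limma's test, and 0 were lower, against 90.2% of listed sites passing in the higher and 5.27% in the lower direction. Kcnd3, which encodes Kv4.3, a pore subunit that Dpp6 accompanies, rose from 5.03 ± 2.65 to 16.3 ± 1.01 normalized reads (SD, n = 3 and n = 2) at a site near the end of its gene (chromosome 3, 105466601 to 105467600). No listed site was in Dpp10, the relative of Dpp6, or in the KChIP genes Kcnip1 to Kcnip4. Kcnab2, which encodes a beta subunit of Kv1 channels, rose from 5.39 ± 2.08 to 16.9 ± 1.82 at a site 6.14 kb from its start. The ether-a-go-go channel genes Kcnh1 and Kcnh5 had limma log2 changes of 1.77 ± 0.34 and 1.51 ± 0.31 (SE). Kcnj16, the gene of another inward rectifier, had one of 1.49 ± 0.30. Among the 12 other calcium- and sodium-activated channel genes, including the BK beta subunit genes Kcnmb1 to Kcnmb4, and the 14 genes of K2P leak channels, 0 held a site.

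Genes that act on the Kcnma1 and Kcnj6 channels were counted in the same way. Of 18 genes of calcium sources, kinases and a phosphatase (Ppp3ca), 4 (22.2%) held a site, beside 3.07% of all RefSeq protein-coding genes. Gene length was again not taken into account. The listed transcripts of these 4 genes span 313.5 to 553.8 kb, where the median span of genes with a listed site was 74.6 kb. The 4 genes held 7 sites, all higher, and 7 of 7 passed limma's test, where 90.2% of all listed sites passed in that direction. The ryanodine receptor gene Ryr2, whose product releases calcium from internal stores, held 3 of them, with centres within 31.1 kb. Its relative Ryr3 held 1, the L-type calcium channel gene Cacna1c 1 and Cacna1d 2. The 7 sites had limma log2 changes of 1.30 to 1.88. Of 44 genes of receptors, G proteins and regulators of GIRK channels, 2 (4.55%) held a site each. Both encode R7 regulators, which end G protein signalling, and both sites passed, again beside 90.2% of the list. The list held only the RGS genes Rgs2, Rgs4 and Rgs6 to Rgs9. Outside it, and looked up after the values were seen, Rgs3 held 2 higher sites and Rgs12 and the metabotropic glutamate receptor gene Grm2 held 1 each. Rgs7 rose from 4.13 ± 1.96 to 14.4 ± 0.57 and Rgs9 from 4.09 ± 0.39 to 15.2 ± 0.59 normalized reads (SD, n = 3 and n = 2). The dopamine D2 receptor gene Drd2 and the GABA-B receptor genes Gabbr1 and Gabbr2 had 0 listed sites. Over these 14 related sites the median limma log2 change was 1.64, beside 1.58 over the 7 sites of Dpp6, Kcnma1 and Kcnj6 and 1.67 over all listed sites.

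**Figure D4:**
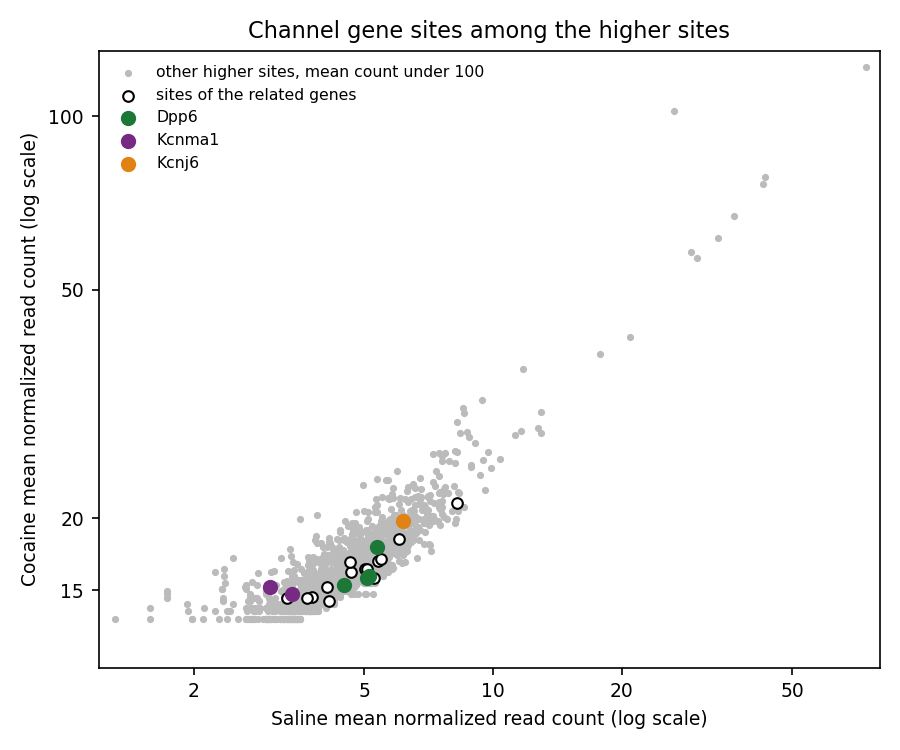
Mean normalized read count after cocaine (y axis, log scale) against that after saline (x axis, log scale) at the 1567 higher sites with a mean count under 100, with Dpp6, Kcnma1 and Kcnj6 in colour and the 14 related sites as open circles. The 7 coloured points lie within the cloud of the other sites, with cocaine means of 14.8 to 19.8 and saline means of 3.02 to 6.15.

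Sites of other genes with nearly the same values in the 5 replicates were common. Likeness was measured as the Euclidean distance over the 5 values on the log2(value + 1) scale, among 763 sites of other genes. The site most like that of Dpp6 in front of NM_001136060 was in Pld5, at a distance of 0.24, followed by Acss2 at 0.25. Helz and Cdyl2 were nearest to the Kcnma1 site at 286.3 kb, at 0.34 and 0.35, and Gtdc1 and Hs3st5 to the Kcnj6 site, at 0.26 and 0.30. Within a distance of 0.5 lay 43, 20 and 13 sites of other genes, so the pattern over replicates did not set these sites apart from the rest of the list.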

How the data were processed

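PARP-1 ChIP-seq was done by the submitters on nucleus accumbens punches, 10 mice per replicate, with the antibody ab6079, fragments of 250 to 350 bp, 21 PCR cycles and reads of 100 bp, per the labels' protocols. The submitters' processing notes name mm9 and CASAVA 1.8.2. The aligner, duplicate handling and window settings are not given in the sources used here. The DNA input sample had no column of its own.

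Each deposited count cell joins the normalized read counts of all replicates of a group. Treatment was read as cocaine and control as saline, as the design text calls the saline animals control. The deposited average of a group is a signal, in normalized reads. The authors' enrichment is a ratio over a background of theirs. The authors' fold change is on the log2 scale, and at the 7 sites it equalled the log2 ratio of the means of the replicate values within 0.005. The p-values and adjusted p-values in the table are the authors' own.

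Changes were fitted with limma 3.58.1 in R 4.3.3, on the log2(value + 1) scale, which understates the change at low counts, with no filter on low values. It draws each site's spread towards a value shared by all 1727 sites. Values were whole reads within 0.1 read in 100.0% of 8635 cases, and an exact two-sided binomial test set the reads of cocaine at a site against the 41.5% of all depth that the cocaine libraries made up. That depth was inferred from the authors' scaling of each library. Limma and the exact test were also run on simulated counts, drawn with counting error only and with 200 sites changed. That setting differs from this list, all of it selected by the authors' test, so no support is drawn from it. The genes, the gene lists and the tests were chosen with earlier results of these data known. Named genes were the 3 genes, every listed gene of the potassium channel and related lists that held a site, and the 2 nearest sites of other genes for the site of smallest authors' adjusted p in each of the 3. Genes named as holding no site, and genes outside the lists, were added after the table was seen. Alternatives were another pseudocount, a limit on the mean count, a trend in limma's spread, the exact test and leaving out each replicate.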

Additional observations from a re-analysis of the deposited data

How the results depend on the processing

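All 7 sites kept the higher direction under every alternative run, with limma or read-based log2 changes of 1.29 to 2.35. With all replicates kept, all 7 stayed past the threshold with a pseudocount of 0.5, with only the sites of a mean count under 100, with a trend in limma's spread and with the exact conditional test, which measures counting error only and was added for this count after seeing the data. The count of passing sites by limma ranged from 0 to 7 when replicates were left out in turn: 0 without cocaine replicate 2, where the smallest adjusted p of the 7 sites was 0.0561 and 0 of all 1727 sites passed, 3 without cocaine replicate 1, and 7 without any of the saline replicates. The 3 were the Dpp6 sites at 211.9 and 470.7 kb and the Kcnma1 site at 286.3 kb. These fits had fewer samples. The median log2 change of the 7 sites was 1.53 to 1.68 without any replicate in turn. The planned edgeR test was not run. No paired analysis was possible because the replicate values carry no numbers that tie cocaine to saline. Depth limits precision: a saline value rested on 1 to 8 reads.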

Other observations

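The background behind the authors' enrichment came in steps. Dividing the authors' deposited cocaine average by their deposited enrichment gave, at 1479 sites with an enrichment of 1 or more, an average of 10 or more and a background of at most 12, whole multiples of 0.512 within 0.1 step in 100.0% of cases. At the 7 sites of Dpp6, Kcnma1 and Kcnj6 the background was 8 to 13 such steps: 8 at the Dpp6 site in front of NM_001136060 and at Kcnj6, the 2 sites of highest enrichment, and 13 at the Dpp6 site at 336.6 kb, the site of lowest enrichment. Because the background was found by dividing by the enrichment, low background and high enrichment go together in part by construction. The table does not say what a step is.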
